A study of Canis lupus familiaris with 15 samples.

Results

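COL1A1, DCN, DPT, FBN1, TNC and BMP4 were followed across skin and lymphoma samples of dogs. The first 5 encode proteins of the extracellular matrix, and BMP4 encodes a secreted signalling ligand. Their probes were found through the RefSeq identifiers printed on a canine Agilent array, which gave 15 of its 43603 probes and 6 of the 1357 genes that could be named. RNA from 15 samples was hybridised, with 1 array for each sample, and came from 5 dogs that the labels name: MalcolmX, Jake, Rosco, Thai and Dog Y. Control skin was biopsied from 2 of the lymphoma dogs, MalcolmX and Rosco, so the controls are skin of dogs with lymphoma. Tumour biopsies came from 4 dogs with drug-resistant lymphoma (MalcolmX, Jake, Rosco and Dog Y) and from Thai, whose tumour is labelled drug sensitive and, in its title, naive. The biopsies of Rosco and Dog Y are described both as untreated and as drug resistant. The 7 fine needle aspirates were 1 from MalcolmX after metformin and 6 from Rosco. Those of Rosco were 1 after failed chemotherapy and before metformin, 1 in remission after metformin, 3 at relapse after metformin, and 1 from what is labelled a second original drug-resistant tumour. A single tumour sample was taken from Rosco after death. Metformin is used against diabetes and reduces the glucose that the liver releases. The labels used here give no breed, age or sex.

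Fibroblasts secrete most of the connective tissue matrix of skin and of the capsule and trabeculae of lymph nodes. COL1A1 encodes a chain of type I collagen, the main fibril of the dermis, and decorin (DCN) and dermatopontin (DPT) bind collagen fibrils and help space and assemble them. Fibrillin (FBN1) forms the microfibrils of elastic tissue, and tenascin C (TNC) is an adhesion-modulating glycoprotein that rises in healing wounds and in many tumour stromas. BMP4 is a ligand of the bone morphogenetic protein family. It binds type I and type II receptor kinases, which act through SMAD proteins and induce ID genes such as ID3. A lymphoma sample is made up mostly of lymphoid cells, which are not a usual source of fibrillar collagen. In such bulk RNA, fewer cells of a type and less RNA in each cell cannot be told apart.

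A level here is the log2 processed signal of the brightest probe of a gene minus that of the 75th percentile of the same array. A level of 0 is therefore a bright probe, and levels of different genes are not compared, since each probe has its own sensitivity. The 75th percentile itself ran from 367 to 1241 signal units, the probes well above background made up 66.8% to 75.9% of each array, and the number of arrays limits the precision. COL1A1, DCN, DPT, FBN1 and TNC were well above background on 15 arrays and BMP4 on 14. The arrays lay on 4 slides read on 2 scan days. Both skin samples, the 4 resistant biopsies and the MalcolmX aspirate shared the first scan day, while the aspirates of Rosco, the post-mortem tumour and the Thai biopsy were read on the second. The keratin gene KRT1 was at 5.36 and 8.26 in the skin samples and at or below −6.28 elsewhere. The Rosco biopsy and the second resistant aspirate go against their lymphoma labels. In these samples MS4A1, which encodes the B cell protein CD20, was at −7.16 and −6.73, while CA6, a secreted carbonic anhydrase of salivary-type glands, was at 8.59 and 8.99. MS4A1 was between 0.38 and 3.53 in the other tumour samples. In Rosco skin it was at −8.04, but in MalcolmX skin it was at 0.84 and well above background. That was above the failed-chemotherapy (0.40) and remission (0.38) aspirates of Rosco. Results against skin are given with and without the Rosco biopsy and the second resistant aspirate. These arrays are called the library labelled Rosco resistant biopsy and the library labelled second resistant aspirate. Most of the aspirates come from 1 dog, so their spread is largely within that dog.

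The COL1A1 levels were 2.25 in MalcolmX skin and 4.13 in Rosco skin. Among the biopsies COL1A1 was 4.39 in MalcolmX, 1.96 in Jake, 0.85 in Rosco, −0.93 in Dog Y and 0.0016 in Thai. The aspirates ran from −0.80 through a median of 0.21 to 1.33, with the MalcolmX sample highest, and the post-mortem tumour stood at 3.80. The MalcolmX biopsy thus lay above both skin samples and the post-mortem tumour between them, and the biopsies spread over 5.31 log2 units. Ordered by mean, the post-mortem tumour came first, then skin (mean 3.19, SD 1.33, n = 2), biopsies (1.26, SD 2.05, n = 5) and aspirates (0.19, SD 0.65, n = 7). By the brightest probe, skin overlapped with the biopsies but not with the aspirates.

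DCN was at 6.34 and 7.53 in the skin of MalcolmX and Rosco. In the biopsies DCN was at 3.12 in MalcolmX, 3.71 in Jake, 6.48 in Rosco, −1.65 in Dog Y and −2.86 in Thai. In the aspirates it ran from −4.12 to 6.37 with a median of 0.89, and it was 2.03 after death. The libraries labelled Rosco resistant biopsy and second resistant aspirate were the highest of their groups, and both reached the level of MalcolmX skin, while the Dog Y and Thai biopsies and the 3 relapse aspirates were the lowest of all. The SD of DCN was 3.90 over the biopsies and 3.98 over the aspirates, against a median SD of 0.55 and 0.54 over 22388 targets. Of those targets, 99.9% had a smaller SD over the biopsies and 99.9% had a smaller SD over the aspirates. The order of the means was skin (6.94, SD 0.84), post-mortem tumour, biopsies (1.76) and aspirates (0.58), and the tumour groups did not differ from each other beyond this spread.

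DPT separated skin from every tumour sample. It was at 5.13 and 6.44 in skin, and at 2.01 in the MalcolmX, −0.037 in the Jake, 1.22 in the Rosco, 0.53 in the Dog Y and −0.13 in the Thai biopsy. The aspirates had DPT levels from −0.10 to 1.88 with a median of 0.91, and the post-mortem tumour had 0.82. Both skin levels lay above all tumour levels, of which that of the MalcolmX biopsy was the highest. Below skin the order of means was aspirates (0.97, SD 0.63, n = 7), the post-mortem tumour and biopsies (0.72, SD 0.90, n = 5), which all overlapped.

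FBN1 stood at 3.52 in MalcolmX skin and 4.42 in Rosco skin. Its biopsy levels were 3.18 in MalcolmX, 0.85 in Jake, 1.57 in Rosco, 0.65 in Dog Y and −0.77 in Thai. Among the aspirates FBN1 ran from −1.09 through a median of −0.75 to 3.25 in the MalcolmX sample, and it was 1.07 after death. Both tumour samples of MalcolmX lay just under skin and above all other tumour samples. The Thai biopsy and the 5 other aspirates of Rosco, leaving out the library labelled second resistant aspirate, were below 0.

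TNC differed between the skin samples themselves, with −2.39 in MalcolmX and 1.32 in Rosco. The biopsies had TNC at −0.14 in MalcolmX, −2.58 in Jake, −2.29 in Rosco, −5.06 in Dog Y and −3.70 in Thai. Aspirate levels of TNC lay between −4.21 and −1.58 with a median of −2.70, and the post-mortem level was −1.35. MalcolmX skin sat inside the range of both tumour groups, and only Rosco skin stood above all tumour samples. The means ordered as skin (−0.53, SD 2.62, n = 2), post-mortem tumour, biopsies (−2.76, SD 1.82) and aspirates (−2.86, SD 1.07), with no neighbours apart beyond their spread.

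BMP4 was at −0.83 in MalcolmX skin and 0.24 in Rosco skin. The biopsy levels of BMP4 were −3.91 in MalcolmX, −4.13 in Jake, −0.93 in Rosco and −5.20 in Thai, and the −6.00 of Dog Y was not well above background. The aspirates ran from −5.41 through a median of −4.14 to −1.11, and the post-mortem tumour had −2.68. Every tumour sample lay below both skin samples, with the library labelled Rosco resistant biopsy just under MalcolmX skin. The lowest signals well above background were between −6.86 and −5.50 on the different arrays, so BMP4 was close to the limit of detection in the Dog Y and Thai biopsies and in the relapse aspirates.

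**Figure D1:**
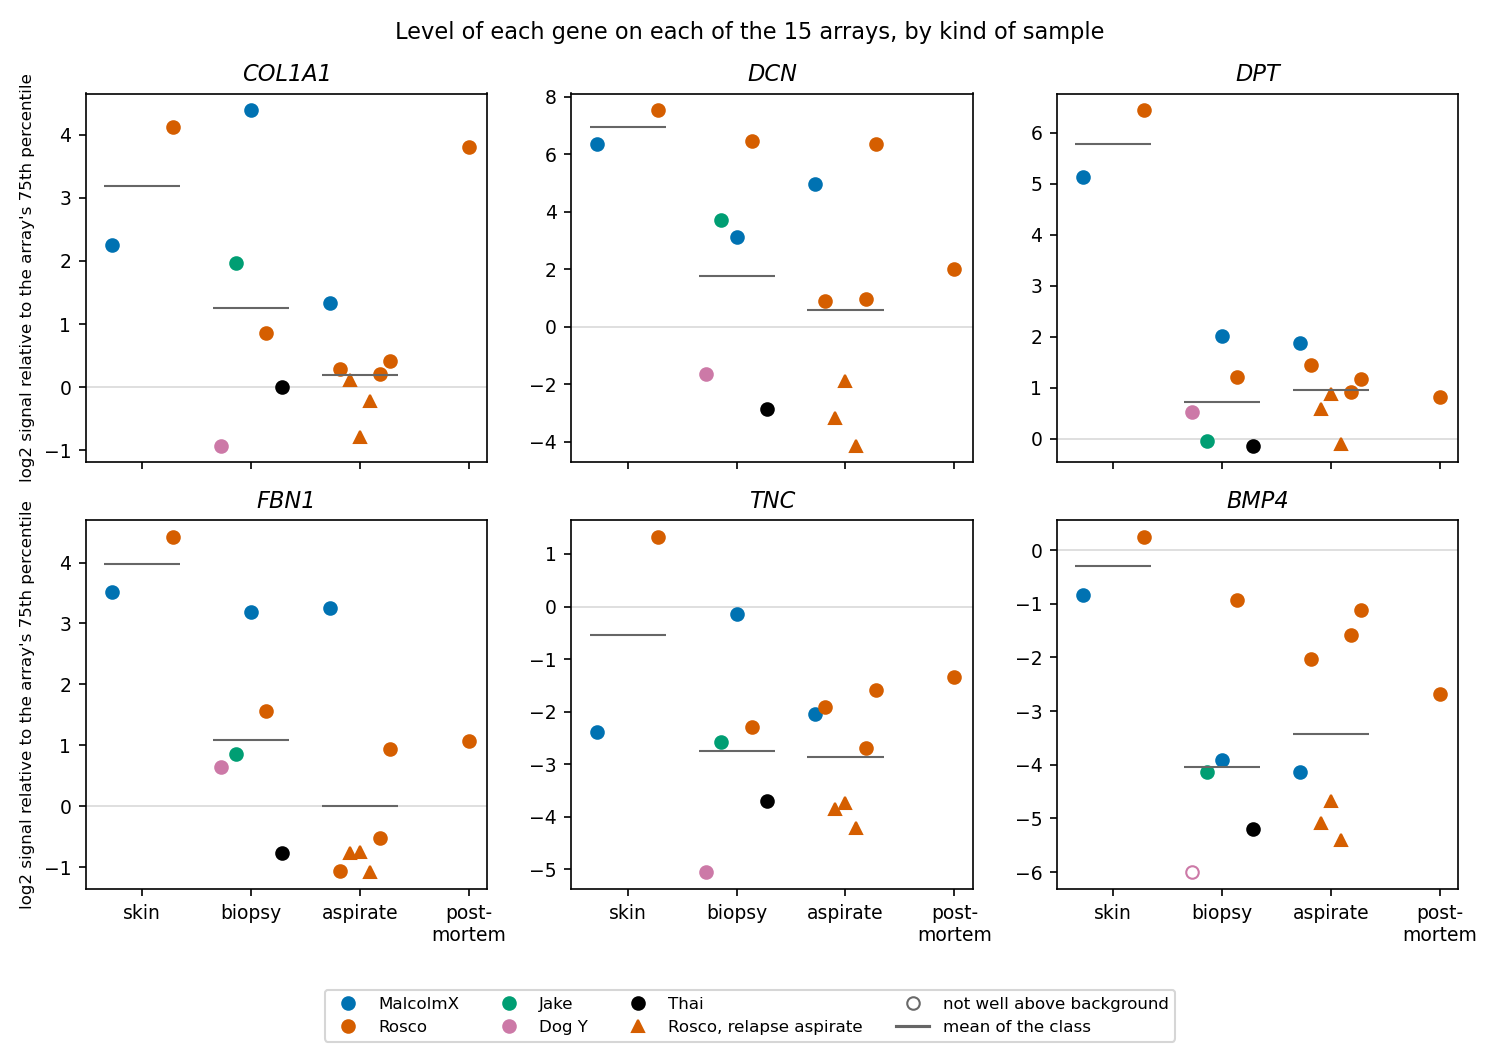
Level of each gene on each array (vertical axis, log2 signal relative to the 75th percentile of the array) by kind of sample (horizontal axis: 2 skin samples, 5 biopsies, 7 aspirates, 1 post-mortem tumour), with a colour for each dog, triangles for the 3 relapse aspirates, an open symbol where the signal was not well above background, and grey lines for class means. DPT, FBN1 and BMP4 lie higher in both skin samples than in every tumour sample, while DCN in the Rosco biopsy (6.48) and the second resistant aspirate (6.37) reaches the level of MalcolmX skin (6.34).

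**Figure D2:**
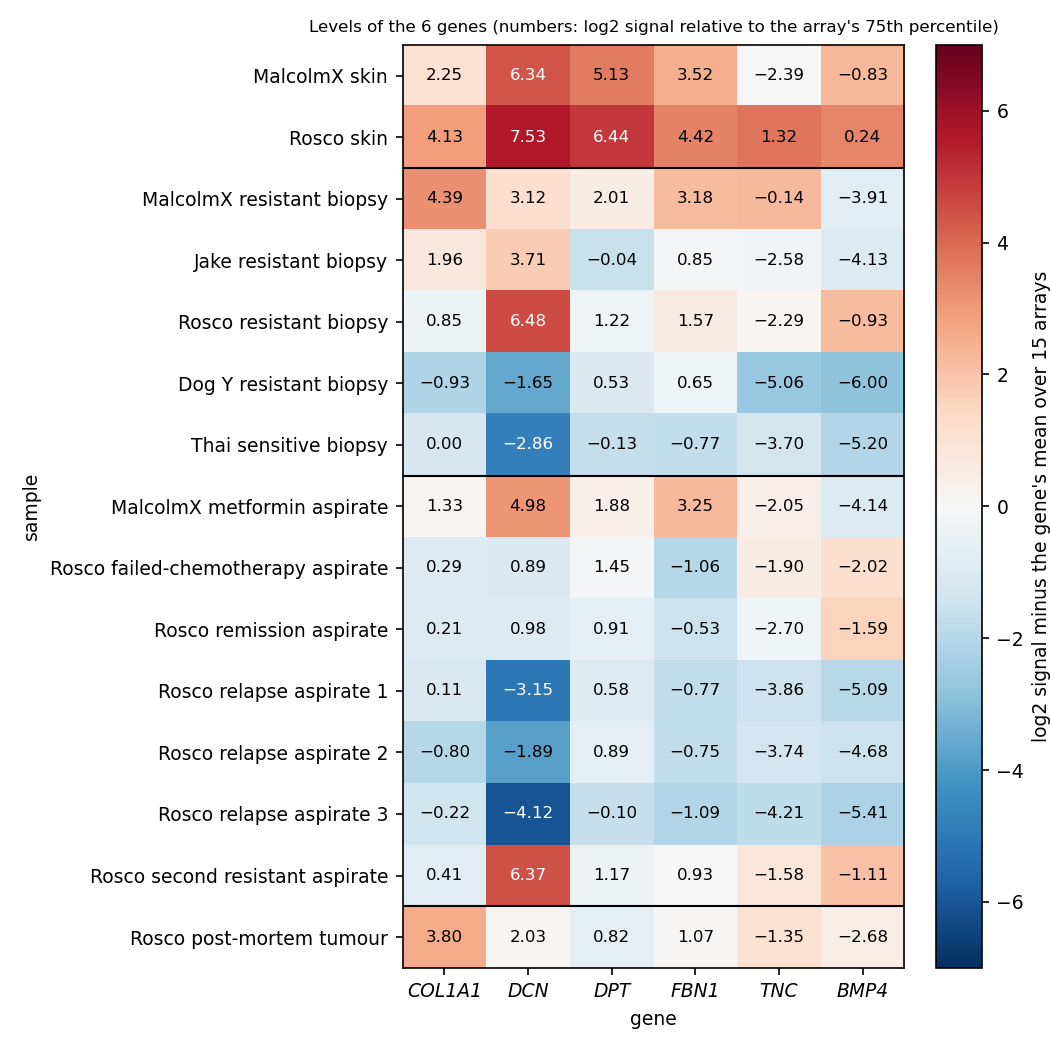
Colour gives each level minus the mean of that gene over the 15 arrays (log2 units, red higher, blue lower), and the printed number is the level itself, with samples as rows in the order skin, biopsies, aspirates and post-mortem tumour. The 3 relapse aspirates are blue for DCN (−3.15, −1.89 and −4.12), TNC and BMP4, and the post-mortem tumour is red for COL1A1 (3.80).

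The biopsies were compared with skin to ask which of these genes differ between lymphoma tissue and control skin. DPT fell by 4.99 (SE 0.61), a 31.8-fold lower level, with an adjusted p of 0.000406 (limma, Benjamini-Hochberg over 23883 targets). It was lower in 5 of 5 biopsies than in either skin sample. None of the other members passed the threshold of 0.05. Their differences were −4.92 (SE 2.87, adjusted p 0.300) for DCN, −3.60 (SE 1.35, adjusted p 0.144) for BMP4 and −2.77 (SE 1.1, adjusted p 0.160) for FBN1. For TNC the difference was −2.09 (SE 1.20, adjusted p 0.294), and for COL1A1 it was −1.81 (SE 1.05, adjusted p 0.296). So 1 of 6 members was called lower, where 3.16% of all targets were. The biopsies lay wholly below skin for DPT, FBN1 and BMP4, which is 3 of 6 members against 9.62% of targets. The median difference over all targets was 0.25, so the 6 differences stand slightly farther below the bulk of the array than their values say.

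In the biopsies, single arrays decided several of these values, and the number of all targets called either way ran from 665 to 3313 when 1 array was left out, the highest without the library labelled Rosco resistant biopsy. Without the library labelled Rosco resistant biopsy the BMP4 difference was −4.51 and passed (adjusted p 0.0317). Without Rosco skin the TNC difference turned to 0.045 (adjusted p 0.989). DPT kept its call when each array was left out in turn, with differences from −5.75 to −4.15, and with slide as a block (−4.61, adjusted p 0.000727). In the pair of dogs that gave both tissues, with dog as a fixed block, the DPT difference was −4.17 and the adjusted p rose to 0.195, and within slide 1 it was −4.56 with an adjusted p of 0.211. Within slide 2, which held 1 biopsy and 1 skin sample of different dogs, the differences were −4.43 for DPT, −4.42 for DCN, −4.16 for BMP4, −1.46 for TNC, −1.24 for FBN1 and 0.26 for COL1A1. Within slide 1 they were −4.56, −3.50, −2.86, −0.92, −2.50 and −1.62 in the same order of genes.

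The 2 dogs that gave both tissues differed in pattern. In MalcolmX the biopsy exceeded the skin sample by 2.14 for COL1A1 and 2.25 for TNC, was lower by 0.34 for FBN1, and differed by −3.23 for DCN, −3.12 for DPT and −3.08 for BMP4. In Rosco every member was lower in the library labelled resistant biopsy, by differences of −3.27 for COL1A1, −3.61 for TNC, −2.85 for FBN1, −1.05 for DCN, −5.22 for DPT and −1.17 for BMP4. COL1A1 and TNC thus moved in opposite directions in the 2 dogs, while DPT was lower in both. These are differences of single arrays and carry no test. Of the targets well above background on both arrays, 35.3% differed by more than 2-fold in the MalcolmX pair and 26.9% in the Rosco pair.

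The aspirates were compared with the same skin samples, so this comparison shares its controls with the one above. Both skin samples were read on the first scan day, and all aspirates but that of MalcolmX on the second and on other slides. Kind of sample, scan day and slide therefore can hardly be told apart here. DPT fell by 4.79 (SE 0.58, adjusted p 0.000348), a 27.6-fold lower level, and FBN1 fell by 3.79 (SE 1.04, adjusted p 0.0308), a 13.9-fold lower level. Both were lower in 7 of 7 aspirates than in either skin sample. DCN differed by −6.25 (SE 2.74, adjusted p 0.122), BMP4 by −3.28 (SE 1.29, adjusted p 0.0930), COL1A1 by −2.90 (SE 1.00, adjusted p 0.0645) and TNC by −2.33 (SE 1.15, adjusted p 0.159), none of which passed. With 2 of 6 members called lower, the share of all targets called lower was 6.56%. The aspirates lay wholly below skin for COL1A1, DPT, FBN1 and BMP4, 4 of 6 members, against 8.47% of targets, and the median difference over all targets was 0.37.

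**Figure D3:**
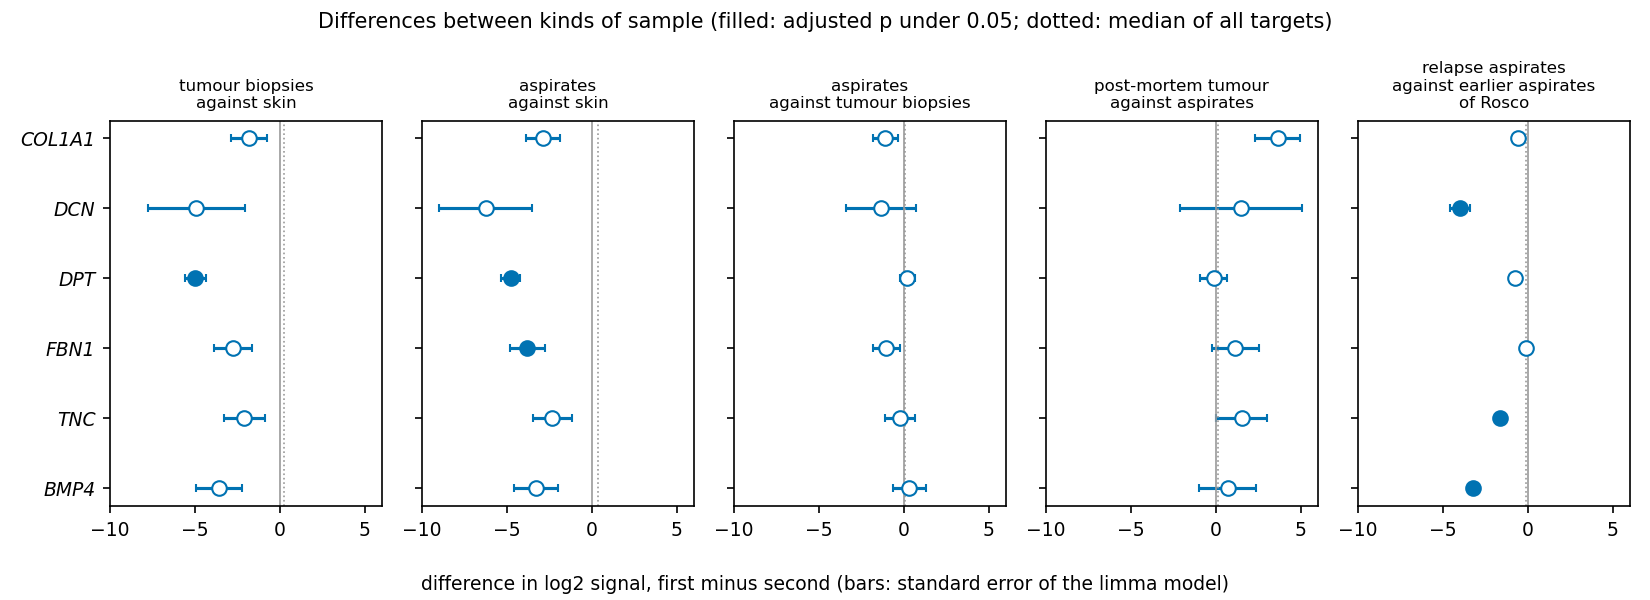
Differences in log2 signal (horizontal axis, first group minus second, with the standard error of the limma model) for each gene in the 5 comparisons, with filled symbols for an adjusted p under 0.05, a solid line at 0 and a dotted line at the median of all targets. DPT is called in both comparisons with skin (−4.99 and −4.79), FBN1 in the aspirates against skin (−3.79), and DCN, TNC and BMP4 in the relapse comparison of Rosco.

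The number of all targets called in the aspirates ran from 1029 without Rosco skin to 8337 without the library labelled second resistant aspirate. Without Rosco skin the TNC difference shrank to −0.12 (adjusted p 0.963) and that of COL1A1 to −1.51 (adjusted p 0.497), and without MalcolmX skin they were −4.25 and −4.03, still without passing. COL1A1 passed with quantile scaling (−3.13, adjusted p 0.0475) and in a fit to the arrays of these 2 classes alone (−3.00, adjusted p 0.0205). The FBN1 call was close to the threshold. It was lost when MalcolmX skin (difference −4.55, adjusted p 0.0640), Rosco skin (−2.77, 0.292), the failed-chemotherapy aspirate (−3.67, 0.0514), relapse aspirate 1 (−3.72, 0.0545) or relapse aspirate 2 (−3.71, 0.0538) was left out. With slide as a block the FBN1 difference was −1.78 (adjusted p 0.307), and the DPT difference was −4.10 (adjusted p 0.0117). Leaving out the library labelled second resistant aspirate brought DCN (−7.07, adjusted p 0.0405), BMP4 (−3.72, adjusted p 0.0332) and COL1A1 (−2.87, adjusted p 0.0456) past the threshold. Another alternative, chosen after seeing the data, left out both of the libraries that go against their labels. There DPT (−4.79), FBN1 (−3.86), DCN (−6.92), BMP4 (−3.56) and COL1A1 (−2.92) were called in the aspirates, and DPT (−5.10) and BMP4 (−4.43) in the biopsies. Much of the array was called with them. Of all targets, 3869 of 24960 were called lower in the aspirates and 3359 of 24362 in the biopsies. With the aspirates of each dog averaged, no member passed, and DPT had a difference of −4.44 (adjusted p 0.0781). On slide 2, which held 1 aspirate and 1 skin sample of different dogs, the differences were −4.57 for DPT, −4.38 for BMP4, −3.37 for TNC, −2.80 for COL1A1, −2.55 for DCN and −1.17 for FBN1. Other slides held no skin beside an aspirate.

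Skin differs from the tumour samples in more than its fibroblasts, and markers of other cell types moved with these results. The log2 summed signal of the 10 named of 17 listed keratinocyte genes was 7.68 and 10.4 in skin, between 1.34 and 6.01 in the biopsies and between 1.19 and 6.02 in the aspirates. The upper ends were the libraries labelled Rosco resistant biopsy and second resistant aspirate. Without these the highest sums were 1.86 in the Thai biopsy and 2.58 in the failed-chemotherapy aspirate. The sum of 6 named of 13 skeletal muscle genes was 8.13 and 6.71 in skin and at most 1.55 in any tumour sample. For 3 named of 8 fat cell genes the sum was 4.85 and 5.38 in skin and at most 1.30 elsewhere. The sum of 7 named of 13 endothelial genes, by contrast, was 4.75 and 5.42 in skin and between 4.24 and 5.75 in the tumour samples. KRT1 was not well above background in any aspirate. Their part in the lower levels of DPT and FBN1 was not tested.

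Aspirates were also set against biopsies. A fine needle draws loose cells, while a biopsy keeps the tissue frame. No member passed, and 0% of 22388 targets were called either way (limma; 1818 targets had an unadjusted p under 0.05). COL1A1 differed by −1.08 (SE 0.76), DCN by −1.33 (SE 2.07), FBN1 by −1.03 (SE 0.79) and TNC by −0.24 (SE 0.87). DPT differed by 0.20 (SE 0.44) and BMP4 by 0.33 (SE 0.97). Their adjusted p-values lay between 0.757 and 0.974. With these standard errors, differences of the observed sizes were not detectable with this number of arrays.

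MalcolmX gave a biopsy before and an aspirate after metformin, and both were read on slide 2. COL1A1 was 8.32-fold lower in the aspirate (difference −3.06) and TNC 3.76-fold lower (−1.91), while DCN was 3.64-fold higher (1.86). DPT, FBN1 and BMP4 differed by −0.13, 0.065 and −0.23. Matrix genes thus went both ways between the 2 samples. In this pair 9.07% of 23142 targets differed by more than 2-fold, and metformin, time and the way of sampling changed together. In Rosco, the library labelled second resistant aspirate and that labelled resistant biopsy had differences between −0.64 for FBN1 and 0.71 for TNC, with −0.11 for DCN. There 8.44% of 23886 targets differed by more than 2-fold.

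Thai gave the 1 biopsy labelled drug sensitive, so it was set beside the 4 resistant biopsies with no test. Its levels of DCN (−2.86), DPT (−0.13) and FBN1 (−0.77) were below all 4. The share of all targets at which Thai lay below all 4 was not counted, so nothing particular to these genes can be read from this. The lowest resistant levels were −1.65 for DCN, −0.037 for DPT and 0.65 for FBN1. COL1A1, TNC and BMP4 in Thai were below 3 of the 4 resistant biopsies and above that of Dog Y. Thai was read on the second scan day and the resistant biopsies on the first. Drug response, dog, slide and scan day therefore cannot be told apart. Without Thai, the differences between the resistant biopsies and skin were −4.80 for DPT (adjusted p 0.00105), −3.87 for DCN, −3.34 for BMP4, −2.34 for FBN1, −1.88 for TNC and −1.53 for COL1A1. DPT remained the member that passed.

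Within Rosco, the 3 relapse aspirates were compared with the 2 earlier aspirates, taken after failed chemotherapy and in remission. BMP4, DCN and TNC were lower at relapse, whereas COL1A1, DPT and FBN1 did not pass. BMP4 was at −2.02 after failed chemotherapy and −1.59 in remission, and at −5.09, −4.68 and −5.41 in the relapse aspirates. It fell by 3.25 (SE 0.27), a 9.52-fold lower level with an adjusted p of 0.000774 (limma over 25317 targets). DCN was at 0.89 and 0.98 before and at −3.15, −1.89 and −4.12 at relapse. It fell by 3.99 (SE 0.61), a 15.9-fold lower level with an adjusted p of 0.00500. TNC went from −1.90 and −2.70 to −3.86, −3.74 and −4.21, and fell by 1.64 (SE 0.29, adjusted p 0.00849). In all 3 genes each relapse aspirate was below both earlier ones.

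COL1A1 was at 0.29 and 0.21 in the earlier aspirates and at 0.11, −0.80 and −0.22 at relapse, a difference of −0.55 (SE 0.29, adjusted p 0.197). DPT was at 1.45 and 0.91, then at 0.58, 0.89 and −0.10, with a difference of −0.72 (SE 0.34, adjusted p 0.156). For FBN1 the levels were −1.06 and −0.53, then −0.77, −0.75 and −1.09, a difference of −0.078 (SE 0.23, adjusted p 0.828). The groups overlapped for FBN1, while COL1A1 and DPT did not overlap but moved by less than a unit. The comparison called a large part of the array. The 3 of 6 members called lower stand against 16.3% of targets called lower, and the 5 of 6 members without overlap against 31.4% of targets with every relapse aspirate below both earlier ones.

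The aspirates of this comparison lay on slides 3 and 4, each with samples from both times. On slide 3 the single relapse aspirate differed from the failed-chemotherapy aspirate by −3.06 for BMP4, −4.04 for DCN and −1.96 for TNC. On slide 4 the other two relapse aspirates differed from the remission aspirate by −3.45 for BMP4 (adjusted p 0.0132), −3.99 for DCN (adjusted p 0.0424) and −1.28 for TNC (adjusted p 0.132). With slide as a block the differences were −3.29, −4.01 and −1.57, and all 3 passed. They also passed when each of the 5 arrays was left out in turn, although the number of all targets called, 8534, fell to 3757 without the remission aspirate, 5518 without the failed-chemotherapy aspirate and 5626 without relapse aspirate 1. After another background correction (normexp, which shrinks differences of dim probes) the BMP4 difference was −1.53 and the TNC difference −0.91, both still called. Markers of other cells moved with these genes. The sum of 5 named of 9 T and NK cell genes was 3.56 to 3.63 in the earlier aspirates and −1.33 to −0.92 at relapse, that of 3 named of 9 B cell genes was 2.07 to 2.47 and then 4.24 to 4.88, and that of 4 named of 9 macrophage genes was 2.48 to 2.80 and then 3.72 to 4.06. Their part in the lower BMP4, DCN and TNC was not tested. With all 5 arrays from 1 dog, the p-values measure spread within that dog.

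The tumour sample taken after death was set against the 7 aspirates. COL1A1 was 12.5-fold higher in it (difference 3.64, SE 1.31), at 3.80 against at most 1.33 in the aspirates, and its unadjusted p was 0.0152. By the 3 dimmer COL1A1 probes the difference was smaller, at 1.37, 1.99 and 1.02. After adjustment over 27044 targets the p was 1.00 for every member, and 0% of targets were called either way (limma; 561 had an unadjusted p under 0.05). TNC differed by 1.52 (SE 1.50), DCN by 1.49 (SE 3.59), FBN1 by 1.14 (SE 1.37), BMP4 by 0.70 (SE 1.69) and DPT by −0.14 (SE 0.77). The post-mortem sample lay above all aspirates for COL1A1 and TNC, 2 of 6 members, where 13.1% of targets did. Against the 3 relapse aspirates alone, which come from the same dog, the differences were 5.08 for DCN, 4.10 for COL1A1, 2.59 for TNC, 2.38 for BMP4, 1.94 for FBN1 and 0.36 for DPT, with adjusted p-values from 0.0549 for COL1A1 to 0.725 for DPT. As there was 1 post-mortem array, that sample was taken to vary as the other groups do. The sum of the endothelial genes was 5.75 in this sample, above the 4.28 to 5.08 of the aspirates, and its part was not tested.

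Other genes of the matrix were taken from lists of collagens, proteoglycans, elastic fibre and adhesive proteins, matrix proteases and their inhibitors, and fibroblast markers. Of 150 listed genes 37 carried a symbol on this array. Against skin, 24 of the 27 tested genes that are not members were lower in the biopsies, with a median of −1.47 where the median of all targets was 0.25, and 0 were called (limma, threshold 0.05), with 8 at an unadjusted p under 0.05. Of all targets, 38.9% were lower and 3.16% were called lower in the biopsies. In the aspirates 25 of 28 were lower, with a median of −1.89 where that of all targets was 0.37, and 5 fell while 1 rose. Of all targets, 36.0% were lower, 6.56% were called lower and 8.41% called higher. Those that fell were COL7A1, the anchoring fibril collagen of the dermal-epidermal junction (−2.54, SE 0.80, adjusted p 0.0484), PDPN, a membrane glycoprotein of fibroblastic reticular and lymphatic cells (−3.72, SE 1.14, adjusted p 0.0442), and S100A4, a calcium-binding protein of motile cells (−1.94, SE 0.58, adjusted p 0.0406). The metalloprotease inhibitors TIMP2 (−3.11, SE 0.90, adjusted p 0.0367) and TIMP3 (−4.29, SE 1.22, adjusted p 0.0341) also fell, although TIMP3 was well above background in only 2 of 7 aspirates. ACAN, the cartilage proteoglycan aggrecan, rose by 1.21 (SE 0.37, adjusted p 0.0415).

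COL1A2, the partner chain of COL1A1 in type I collagen, differed by −1.77 (SE 1.23, adjusted p 0.373) in the biopsies and −2.84 (SE 1.17, adjusted p 0.106) in the aspirates, close to the values of COL1A1. SERPINH1, the collagen chaperone, differed by −1.59 and −2.74, and BGN, the proteoglycan most like decorin, by −2.03 and −2.84, with adjusted p-values of 0.0552 and 0.0554 in the aspirates. PDGFRB, a receptor of pericytes and fibroblasts, was on the other side with 0.35 and 0.81, and THY1, carried by fibroblasts and by T cells of several species, stood at −0.51 and −0.061. None of these 5 genes passed. After death COL1A2 was 2.71 (SE 1.54), SERPINH1 1.98 (SE 1.18) and TIMP1, a metalloprotease inhibitor, 2.41 (SE 0.58) above the aspirates, also without passing.

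**Figure D4:**
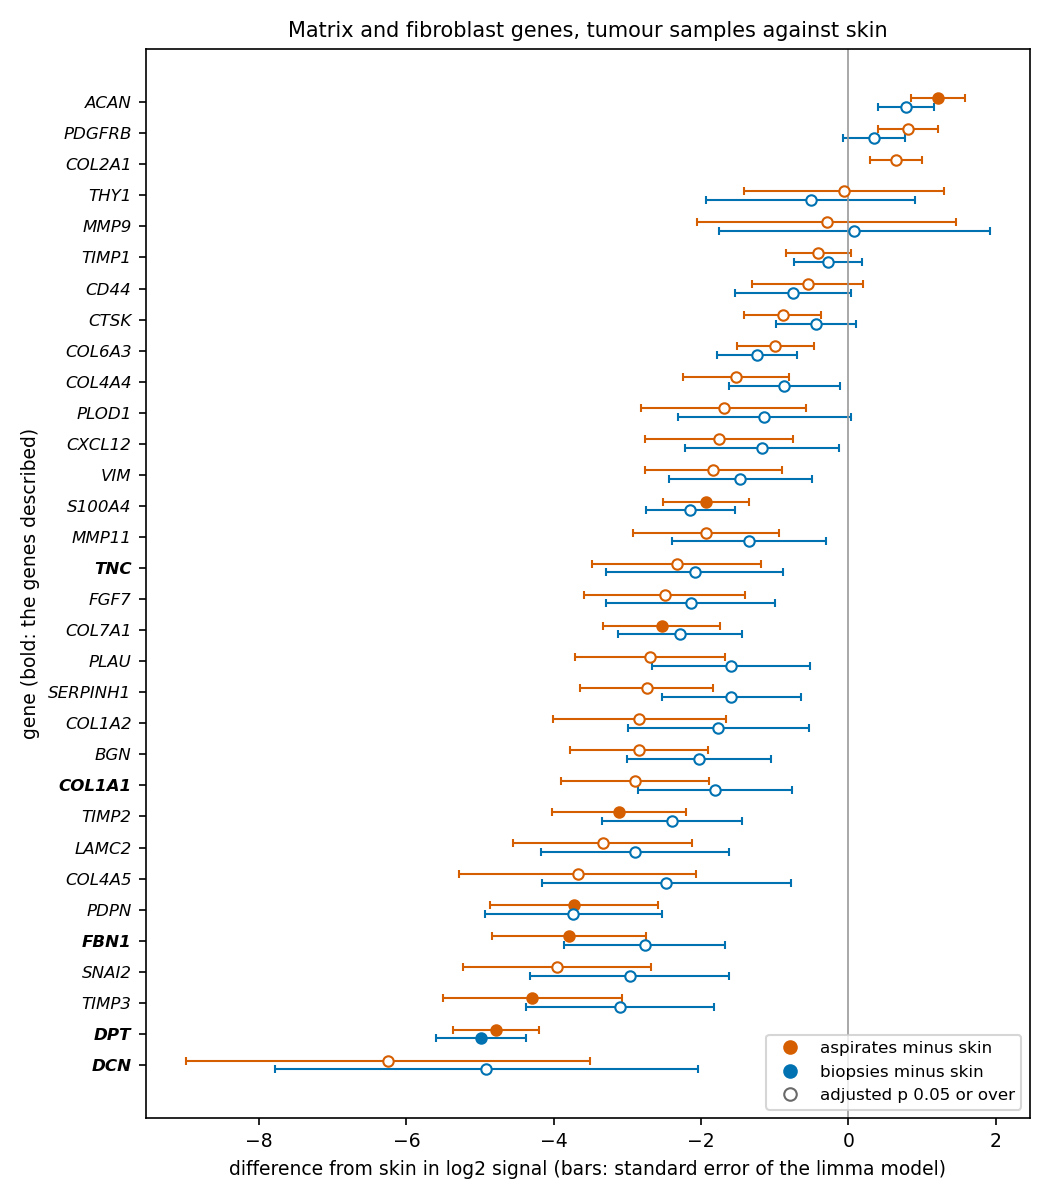
Difference from skin in log2 signal (horizontal axis, with the standard error of the limma model) for the named matrix and fibroblast genes reported here (vertical axis, ordered by the aspirate difference, the 5 matrix genes described in bold), in aspirates (orange) and biopsies (blue), filled where the adjusted p is under 0.05. DPT is filled in both, and most genes lie left of 0, with ACAN (1.21 in aspirates) the farthest to the right.

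In the relapse aspirates of Rosco, 24 listed genes that are not members were tested, 19 were lower than in the earlier aspirates, 6 fell and 1 rose. Of all targets, 54.9% were lower, 16.3% were called lower and 17.4% called higher. The median was −0.53 and that of all targets −0.083. THY1 fell by 4.58 (SE 0.30, adjusted p 0.000416), VIM, the mesenchymal filament protein that lymphocytes also carry, fell by 2.64 (SE 0.23, adjusted p 0.000825), and MMP12, the macrophage elastase, fell by 4.06 (SE 0.24, adjusted p 0.000321). MMP12 was well above background in only 1 of 3 relapse aspirates, so the size of its fall is uncertain. MMP9, a gelatinase, fell by 2.44, and CD44, a hyaluronan receptor, fell by 1.63. PDGFRB rose by 1.11 (SE 0.22, adjusted p 0.0118). COL1A2 differed by −0.58 (SE 0.31, adjusted p 0.203), again close to COL1A1 (−0.55), and BGN by −0.60 (adjusted p 0.228). Decorin fell at relapse, and the type I collagen genes did not pass.

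Of 51 genes of the BMP and TGF-beta pathway only 7 carried a symbol on this array. Among ligands, BMP7, which acts through the same receptor family as BMP4, fell by 4.07 (SE 0.41, adjusted p 8.42e-05) in the biopsies and fell by 3.01 (SE 0.39, adjusted p 0.000578) in the aspirates compared with skin. Its skin levels were −2.06 and −0.62, and its tumour levels lay between −5.72 and −3.44. In Rosco it did not pass at relapse, with a difference of −0.49 (SE 0.31, adjusted p 0.276), while BMP4 was at −3.25, and the difference between the 2 genes was not tested. GDF9, an oocyte ligand, did not pass in any comparison in which it was tested, and MSTN, the muscle ligand myostatin, was too dim to test.

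Among the receptors, BMPR1A differed from skin by −2.58 (adjusted p 0.229) in the biopsies and −2.68 (adjusted p 0.128) in the aspirates. It was well above background in only 2 of 5 biopsies and not in every aspirate, so the sizes of these differences are uncertain. It was highest in the library labelled second resistant aspirate (−2.34), Rosco skin (−2.47), the library labelled Rosco resistant biopsy (−3.13) and MalcolmX skin (−3.82), the same 4 arrays that were highest for BMP4. BMPR1B differed by −0.27 and −0.23 and did not pass. ID3, a target gene of BMP signalling that other pathways also induce, went the other way from BMP4 in Rosco. It was at −2.61 and −2.33 in the earlier aspirates of Rosco and at 0.71, −0.0024 and 1.08 at relapse, and rose by 3.07 (SE 0.34, adjusted p 0.00171). The libraries labelled Rosco resistant biopsy and second resistant aspirate had ID3 at −2.38 and −2.15 beside their high BMP4. The sum of the B cell genes was −0.39 and −0.92 in these libraries. It was 2.07 to 2.47 in the earlier aspirates of Rosco and 4.24 to 4.88 at relapse. Its part in the ID3 levels was not tested. Against skin ID3 differed by 0.41 (adjusted p 0.816) in the biopsies and 0.22 (adjusted p 0.882) in the aspirates.

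The 15 probes bear on how far the levels depend on the probe that is read. COL1A1 and FBN1 had 4 probes, DCN, DPT and TNC had 2, and BMP4 had 1, so BMP4 has no second reading. Over the 15 arrays the second probe of DCN had a Pearson r of 0.996 with the first, that of TNC 0.991 and that of DPT 0.915, and the other FBN1 probes had 0.938 to 0.981. The remaining COL1A1 probes were dimmer on every array, by 3.15 to 8.65 log2 units, and had r between 0.650 and 0.892. Skin lay wholly above the aspirates by the brightest COL1A1 probe only. Skin minus aspirates was 3.00 by that probe and 0.70, 1.90 and 0.39 by the others, so the size of that difference depended on the probe. The last 2 of these probes were well above background on only 10 and 9 arrays, and the last was not so in MalcolmX skin. For FBN1 it was 3.43 to 3.97 by all 4 probes, for DCN 6.36 and 7.19, and for TNC 2.33 and 2.54, where the dimmer DCN probe was well above background on 13 arrays and the dimmer TNC probe on 11. For DPT the dimmer probe gave a larger difference, 6.82 against 4.82, though it was well above background on only 11 of 15 arrays. These correlations describe arrays that share dogs and slides and carry no test.

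**Figure D5:**
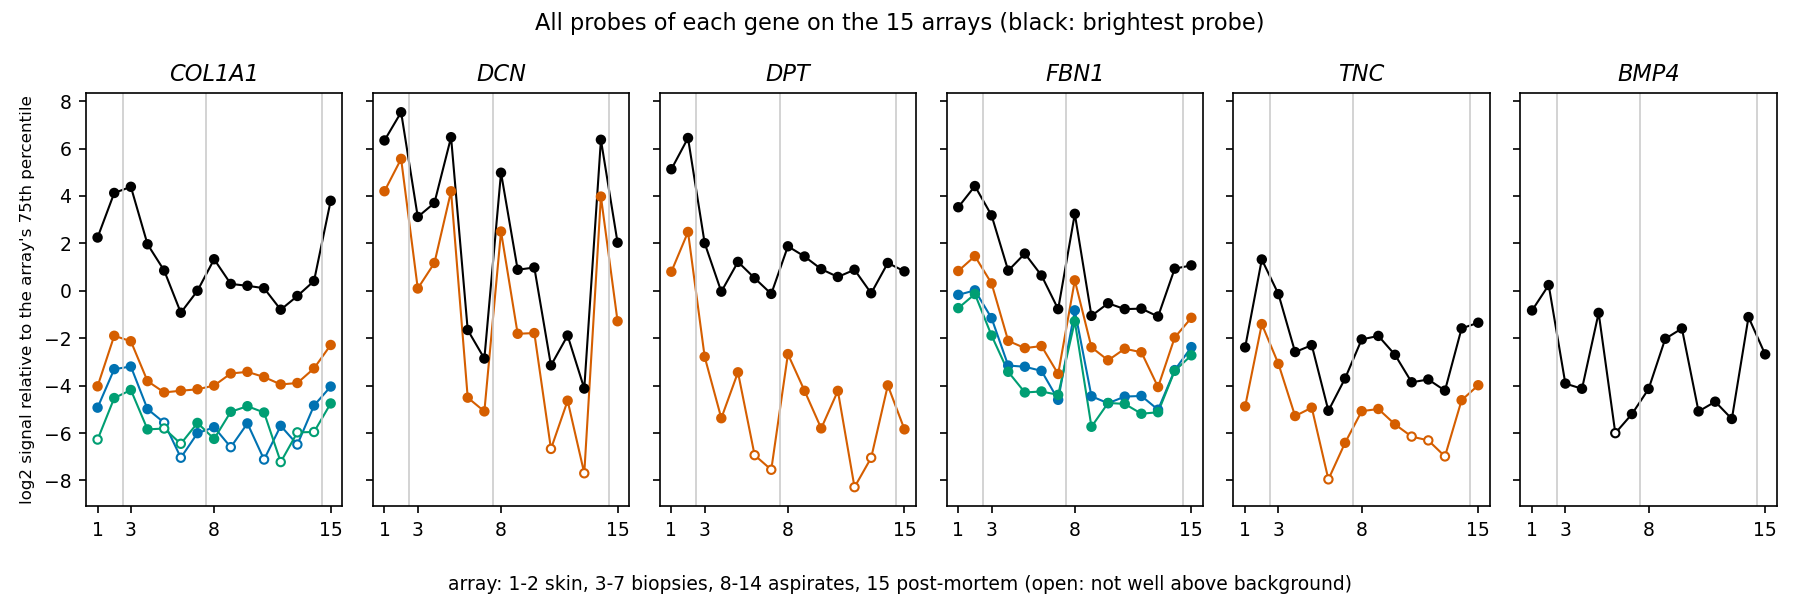
Level of every probe (vertical axis, log2 signal relative to the 75th percentile of the array) on the 15 arrays (horizontal axis, 2 skin samples, 5 biopsies, 7 aspirates and 1 post-mortem tumour in the order of the colour map), with the brightest probe in black and open symbols where a probe was not well above background. Both DCN probes trace the same course (r 0.996), whereas the dimmer COL1A1 probes span a smaller range (2.39 to 3.92 log2 units) than the brightest (5.31).

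Between members the levels over the 15 arrays went in the same direction, with Pearson r from 0.454 for COL1A1 with BMP4 to 0.851 for COL1A1 with TNC. DCN had 0.807 with FBN1 and 0.807 with BMP4. As the arrays share dogs and the skin samples are high for most members, these are descriptions. Among 1163 named genes, those most like each member over the 15 arrays were found by Pearson r. COL1A1 was most like COL1A2 (0.951), the transcription cofactor gene ZFPM2 (0.890) and the prostaglandin dehydrogenase gene HPGD (0.855). TNC was also nearest to COL1A2 (0.920) and HPGD (0.900), followed by the prostaglandin E synthase gene PTGES (0.869). DCN was nearest to SERPINF1 (0.960), which encodes a secreted serpin, SMOC2 (0.934), a matricellular protein gene, and the metalloprotease gene MMP11 (0.932). DPT was near to the fat cell hormone ADIPOQ (0.962) and the epidermal protease inhibitor SPINK5 (0.955), genes of other cell types that are high in the skin samples. FBN1 was nearest to the endothelin gene EDN1 (0.942), the chemokine receptor gene ACKR3 (0.936) and the thyrotropin receptor gene TSHR (0.931). BMP4 was nearest to the annexin gene ANXA2 (0.940), PPFIBP1 (0.933), which encodes a liprin, and the thioredoxin reductase gene TXNRD3 (0.929).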

How the data were processed

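Per the labels' protocols, total RNA of good integrity was labelled with Cy3 by the Low Input Quick Amp kit and hybridised to 1-colour arrays. The authors read spot intensities out of the scans with Agilent's Feature Extraction (11.0.1.1, per the submitters' processing notes and the file headers). Its processed intensity is corrected for background and spatial trend within the array and is not normalised between arrays. The deposited flags of 0 or 1 for spots well above background, saturated or outlying were used as given, and 0 spots were saturated. The authors' deposited series table of background-subtracted intensities served as an alternative.

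From these, outlying spots were left out, the log2 intensity minus that of the 75th percentile of the array was taken, spots of 1 probe were averaged, and 161 probes missing on an array were dropped. RefSeq accessions named 2186 of 43603 probes (5.01%). For each of 36604 targets the brightest probe by mean was used, and a target entered a test if 1 or more of the groups compared had it well above background throughout. Differences were fitted with limma 3.58.1 in R 4.3.3 over all 15 arrays with 4 sample classes and dog as a random block (consensus correlation 0.086). A difference from that fit can therefore depart slightly from the plain difference of means. The relapse comparison used 5 arrays of Rosco with no block. All tests were two-sided. The p-values were adjusted by Benjamini and Hochberg's method within each of 5 comparisons, across every target tested, and the threshold was 0.05. Replicates are separate samples, several from 1 dog, so the aspirates are not independent samples of dogs. In the fit of all 15 arrays the spread was pooled over the 4 sample classes. The p-values of that fit therefore mix spread between dogs with spread within Rosco. Alternatives covered scaling, background correction, the filter, probe choice, the blocks, the samples used and leaving out each array.

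The genes named are the 6 members, the genes of the matrix, BMP and cell marker lists that carry a symbol, and for each member the 3 most alike of the genes well above background on at least 3 arrays, except 2 genes that are counted but not reported here. The members and lists were chosen with earlier results of these data known. The assembly of the reference at hand differs from that of the array, so no positions or sequences are given.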

Additional observations from a re-analysis of the deposited data

Results flagged for a closer look

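In the 2 dogs that gave both tissues, COL1A1 and TNC differed between biopsy and skin in opposite directions. For COL1A1 the difference, biopsy minus skin, was 2.14 in MalcolmX and −3.27 in Rosco, and for TNC it was 2.25 in MalcolmX and −3.61 in Rosco. The difference between the dogs was not tested, since each value rests on 2 arrays, and the Rosco value rests on the library labelled resistant biopsy, which goes against its lymphoma label. The spread of 6 genes over the resistant biopsies, all biopsies and the aspirates gave no sample past Dixon's 95% critical value.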

How the results depend on the processing

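The 6 members were refitted under each alternative, which gave 627 values. Of these, 29 changed direction, 11 lost a call, 10 gained a call and 7 kept their direction but were labelled as moved in size. The remaining 570 were counted as the same, which does not mean that their size was kept. TNC in the aspirates against skin, for example, was always counted as the same, with differences from −4.25 to −0.12. BMP4 at relapse was too, with differences from −3.47 to −1.53. Differences between single arrays carried no p-value and so had no side of the threshold. For the biopsies against skin, the count of targets called was 982 and became 477 with normexp, 636 with the deposited series table, 611 with slide as a block, 231 with only the arrays compared, 411 with dog means, 40 within slide 1, 0 in the 2 dogs with both tissues (2152 at an unadjusted p under 0.05), 665 to 3313 when 1 array was left out, and 7455 without the 2 libraries that go against their labels, an alternative chosen after seeing the data, as was the series table. Quantile scaling changed the split of this count from 228 higher and 754 lower to 445 and 831. For the aspirates against skin, the count of 3652 became 1322 with normexp, 200 with slide as a block, 93 with dog means, 1029 to 8337 when 1 array was left out and 10311 without those 2 libraries. The post-mortem comparison called 11 targets with quantile scaling, 1 with only the arrays compared, 0 to 2 when 1 array was left out and 1 without those 2 libraries. The relapse comparison went from 8534 to 2482 within slide 4 and 3757 to 9737 when 1 array was left out.

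Directions turned for members that had passed no threshold, most of them between aspirates and biopsies. There DCN became 1.53 with slide as a block, 0.66 with dog means, 1.73 within slide 3, 1.86 within slide 2 and −2.57 to 0.047 when 1 array was left out. FBN1 became 0.12 with slide as a block, 0.26 with dog means and 0.065 within slide 2. TNC became 0.013 with normexp, 0.23 with dog means, 0.82 within slide 3 and −0.76 to 0.43 when 1 array was left out. COL1A1 became 0.20 within slide 3. DPT became −0.042 by its dimmer probe, −0.13 within slide 2 and −0.049 to 0.52 when 1 array was left out, and BMP4 became −0.23 within slide 2 and −0.26 to 1.36 when 1 array was left out. Against skin, COL1A1 in the biopsies became 0.26 within slide 2, and TNC −4.07 to 0.045 when 1 array was left out. For the post-mortem tumour, dog means gave −0.38 for DCN and −0.28 for FBN1, the relapse aspirates alone gave 0.36 for DPT, and leaving out 1 array gave −0.32 to 0.0017 for DPT. At relapse FBN1 became 0.21 by its dimmest probe, 0.28 within slide 3 and −0.34 to 0.19 when 1 array was left out. The cause of these changes was not tested. No paired analysis by replicate number was possible because the labels number no replicates across groups, and dog was used instead. With 2 skin samples and 1 post-mortem tumour, the number of arrays limits what could be detected.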
